A study of Homo sapiens with 4 samples.

Results

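Estrogen-induced genes of breast cancer were examined in T47D, an ER+ and progesterone receptor-expressing line of human breast ductal carcinoma. Of 10 genes listed by symbol, GREB1, TFF1, TFF3, PDZK1, MYB, CA12, AGR2, AGR3, RERG and STC2, 9 had a probe named for them, among 38598 probes on the array. RERG, a RAS-related small GTPase gene, had no probe with this symbol and was not analysed here. Each of the 9 genes had 1 probe, so no choice between probes was needed. The samples were 2 shControl arrays and 2 FDXR sh434 arrays. The shControl cells carried a control that the design text calls a vector and the paper a control shRNA. The FDXR sh434 cells carried a hairpin that targets FDXR, the gene of ferredoxin reductase. This enzyme is a mitochondrial flavoprotein that passes electrons from NADPH to ferredoxin. All 4 samples grew in RPMI-1640 with fetal bovine serum, with no added estrogen or antiestrogen named in the labels, and were infected with virus, which the design text calls a retrovirus and the paper a lentivirus. FDXR depletion on these arrays rests on 1 hairpin, and no probe is named FDXR, so the depletion itself was not analysed here. The paper measured FDXR by Q-PCR and immunoblot in T47D cells with FDXR sh434 or the control shRNA. It used another FDXR hairpin as well in other experiments.

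Estrogen enters the cell and binds the estrogen receptor ERα, the product of ESR1, which then sits on enhancers opened by the pioneer factor FOXA1 and with GATA3 raises the transcription of its target genes. GREB1 and TFF1 are among the targets most often read as a sign of receptor activity. The 10 genes have different jobs. GREB1 is a chromatin-bound partner of the receptor and MYB a transcription factor. TFF1 and TFF3 are small secreted trefoil peptides and STC2 a secreted glycoprotein. AGR2 and AGR3 are protein disulfide isomerases of the secretory pathway, PDZK1 a scaffold with PDZ domains that holds membrane transporters, and CA12 a carbonic anhydrase of the cell surface.

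The 4 arrays were on 1 scale, with median log2 signals from 4.76 to 4.78. Across probes, which are not independent replicates, arrays of the same condition correlated at 0.991 and 0.994 and arrays of different conditions at 0.987 to 0.988. The label fields of 3 arrays name the cells T48D, T49D and T50D, whereas the growth protocol of all 4 names T47D. Of 16 luminal markers 11 were measured, and all 11 lay above the median probe signal, with mean log2 signals from 7.48 to 11.17. Markers of basal cells, with 4 of 8 measured, of immune cells, with 3 of 8, and of endothelial cells, with 4 of 6, had median log2 signals of 4.57, 4.25 and 4.32, and those of a virus-producing kidney cell, with 2 of 6 measured, 5.13. Of these, 1 basal, 1 immune, 1 endothelial and both measured kidney markers lay above the median probe signal. Of 8 fibroblast markers only DCN and LUM were measured. Their summed linear signal was 63.0 to 70.1 in shControl cells and 20.4 to 23.4 in FDXR sh434 cells, which came from LUM (log2 fold change -1.86, adjusted p = 0.0213 from limma), while DCN lay at 2.13 to 2.28 on all arrays, with only 8.58% of probes dimmer. The summed signal was 121 on each shControl array and 140 to 145 on the FDXR sh434 arrays for the immune markers. Their log2 fold changes were 0.29 for CD68, 0.16 for CD14 and -0.05 for LYZ. The sums were 94.5 to 103 and 103 to 117 for basal markers and 91.0 to 94.1 and 96.6 to 98.5 for endothelial markers. For the kidney markers they were 73.7 to 74.3 and 63.7 to 75.5. None of the markers in these sets passed. The luminal markers summed to 14200 in shControl cells and 13500 to 13700 in FDXR sh434 cells. Of the 11, 0 passed by limma, against 0.402% of all probes lower and 0.298% higher. When limma let the spread between arrays follow the signal, PGR and TFAP2C were lower and KRT18 and SPDEF higher. Such calls made up 3.41% and 5.02% of all probes. The part of other cell types in the results was not tested.

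FDXR sh434 cells had less AGR3 mRNA, at 52.1% of the shControl level. PDZK1, STC2, GREB1 and AGR2 had lower signals, at 53.9% to 71.3%, but did not pass by limma (adjusted p from 0.0555 to 0.139). MYB stood at 74.1% and TFF1, CA12 and TFF3 at 91.1%, 96.7% and 111%, and these did not pass either. By limma with Benjamini-Hochberg adjustment over all 38598 probes, 1 of the 9 genes, AGR3, was lower at an adjusted p under 0.05 and 0 were higher, against 0.402% of all probes lower and 0.298% higher. When limma let the spread between arrays follow the signal, with robust estimation, 5 of the 9 were lower (AGR3, PDZK1, STC2, GREB1 and AGR2) and 0 higher, against 3.41% and 5.02% of all probes. All 9 genes were brighter than the median probe. Limma on the 19299 probes at or above the median signal called the same 5 genes, and 995 of these probes were lower and 1546 higher. The genes were chosen with earlier results of these data known. At an unadjusted p under 0.05, 6 were lower and 0 higher, against 7.82% and 9.44%. For 8 of the 9 genes the FDXR sh434 arrays were both lower than either shControl array, and for 0 both higher, which held for 23.1% and 25.6% of all probes. The median log2 fold change was -0.49 over the 9 genes and 0.0041 over all probes. In bulk RNA, fewer cells expressing a gene and less RNA per cell cannot be told apart.

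**Figure D1:**
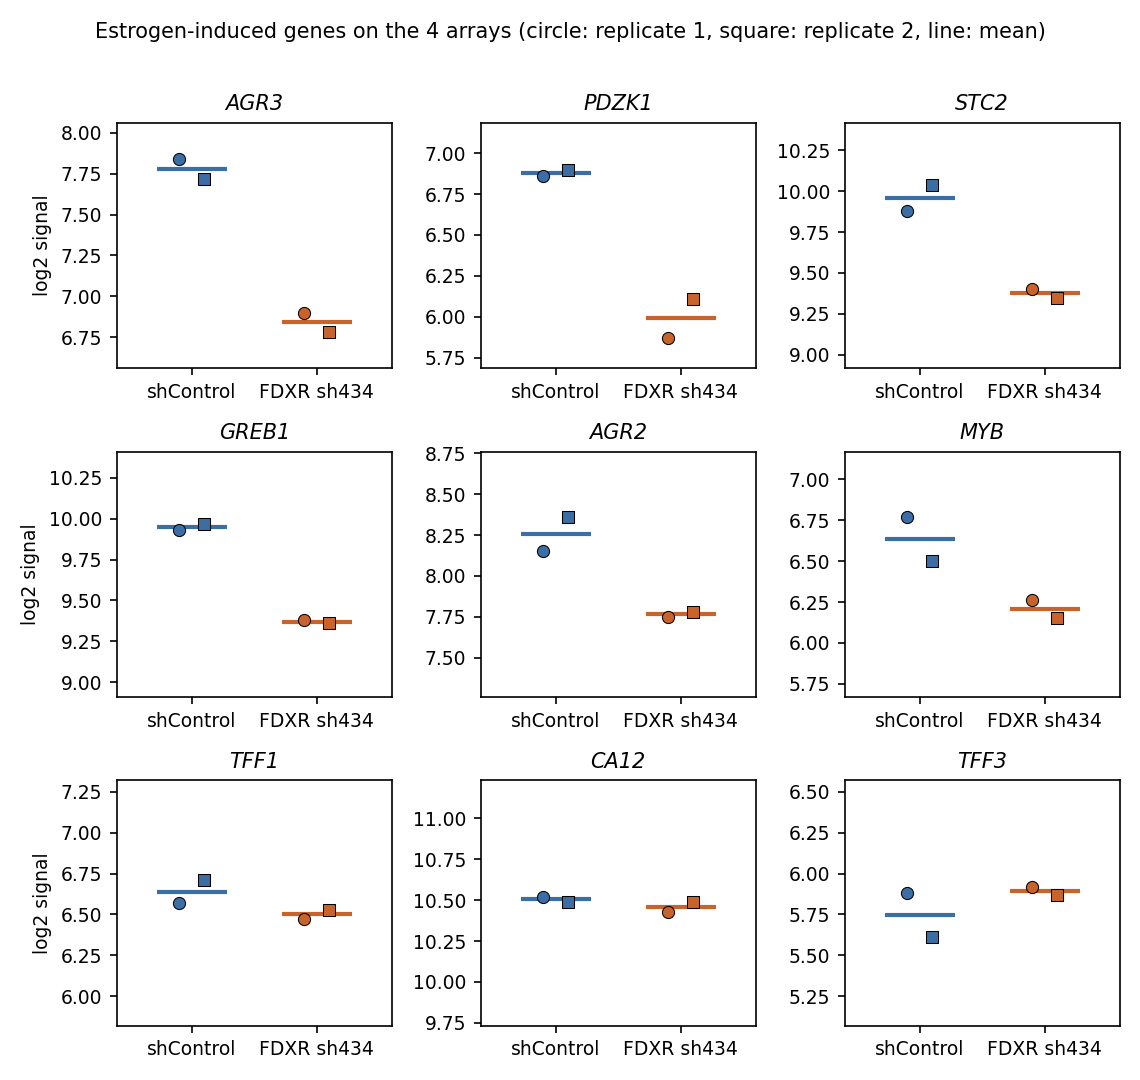
Log2 signal of each measured estrogen-induced gene (y axis, 1 panel per gene, every panel spanning the same height in log2 units) on the 2 shControl and 2 FDXR sh434 arrays (x axis); points are arrays and lines are means. The FDXR sh434 points lie below the shControl points in every panel but that of TFF3, by a wide gap for AGR3 (0.82) and PDZK1 (0.74) and by 0.01 for CA12.

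AGR3 and AGR2 are neighbouring paralogs on chromosome 7. The AGR3 log2 signal was 7.84 and 7.72 in shControl cells and 6.90 and 6.78 with FDXR sh434. The conditions were 0.82 apart at their closest arrays, while arrays of the same condition differed by 0.12. The log2 fold change was -0.94 (standard error 0.112, 95% interval -1.22 to -0.66, adjusted p = 0.0451 from limma, 0.000294 with the spread following the signal), a 1.92-fold lower level, and 0.523% of all probes had a value as low. Without any 1 of the 4 arrays AGR3 lost its call by limma without a trend, with its log2 fold change at -0.88 or lower and an adjusted p = 0.212 and 0.221 without shControl replicate 1 and 2 and 0.296 and 0.313 without FDXR sh434 replicate 1 and 2.

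AGR2 encodes an enzyme that folds mucins in secretory epithelia. Its log2 signal was 8.15 and 8.36 in shControl cells and 7.75 and 7.78 in FDXR sh434 cells. The groups did not overlap, and the spread lay mostly between the shControl arrays. The log2 fold change was -0.49 (standard error 0.119, 95% interval -0.79 to -0.19, adjusted p = 0.139 from limma and 0.00809 with the spread following the signal). With the trend its adjusted p was 0.153 without FDXR sh434 replicate 1 and 0.125 without replicate 2. The intervals of AGR2 and AGR3 overlap, and the difference between their changes was not tested. On either side of the pair, TSPAN13, a tetraspanin gene, had a log2 fold change of 0.08 (adjusted p = 0.73) and AHR, the aryl hydrocarbon receptor gene, one of 0.46 (adjusted p = 0.121, 0.00143 with the spread following the signal), so AHR passed in that fit in the opposite direction to AGR2 and AGR3.

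PDZK1 gave log2 signals of 6.86 and 6.90 in shControl cells and 5.87 and 6.11 in FDXR sh434 cells. The FDXR sh434 arrays differed from each other by 0.24 and lay at least 0.74 below the controls. The log2 fold change was -0.89 (standard error 0.126, 95% interval -1.21 to -0.58), or 1.85-fold lower, with an adjusted p = 0.0555 from limma and 0.00156 with the spread following the signal. Only 0.65% of all probes had a value as low. RefSeq annotates a transcribed pseudogene, PDZK1P1, on the same chromosome, and how far the PDZK1 probe also reads its RNA was not tested.

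STC2, a secreted stanniocalcin known to inhibit the protease PAPP-A, gave log2 signals of 9.88 and 10.04 in shControl cells and 9.40 and 9.35 in FDXR sh434 cells. Its log2 fold change was -0.59 (standard error 0.113, 95% interval -0.87 to -0.30, adjusted p = 0.0934 from limma and 0.000928 with the spread following the signal), a 1.5-fold lower level. With the trend its adjusted p was 0.056 without FDXR sh434 replicate 2. Its paralog STC1, on the list of relatives, was called in both fits. STC1 stood at 9.06 and 9.14 in shControl and at 8.22 and 8.05 in FDXR sh434 cells. The STC1 log2 fold change was -0.96 (standard error 0.115, adjusted p = 0.0452 from limma), so both stanniocalcin genes had lower signals.

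GREB1 had tight replicates. Its log2 signal was 9.93 and 9.97 in shControl cells and 9.38 and 9.36 in FDXR sh434 cells, so arrays of a condition differed by 0.04 and 0.02 and the conditions by at least 0.55. The log2 fold change of GREB1 was -0.58 (standard error 0.101, 95% interval -0.83 to -0.33), or 1.49-fold lower, with an adjusted p = 0.0805 from limma and 0.000307 with the spread following the signal. In that fit, which takes the spread from probes of like signal, the standard error of GREB1 was 0.0546, and 98.1% of probes were dimmer. The standard error without a trend was larger than the spread of the GREB1 arrays themselves. GREB1L, its paralog, had a log2 fold change of 0.42 (adjusted p = 0.143 from limma, 0.0455 with the spread following the signal), opposite in sign to that of GREB1.

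**Figure D2:**
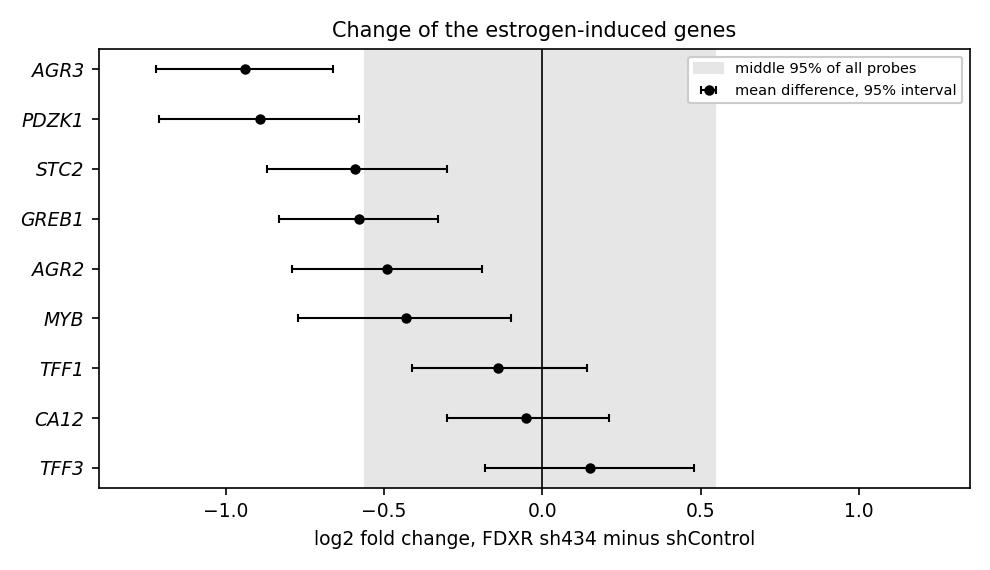
Log2 fold change of each measured gene, FDXR sh434 minus shControl (x axis), with its 95% interval from limma without a trend (bars); the grey band holds the middle 95% of all probes. The points of AGR3, PDZK1, STC2 and GREB1 lie beyond the band's lower edge at -0.56, and the intervals of TFF1, CA12 and TFF3 span 0.

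MYB did not pass in either fit. Its log2 signal was 6.77 and 6.50 in shControl cells and 6.26 and 6.15 in FDXR sh434 cells, so that the shControl arrays differed by 0.27 and the conditions by no less than 0.24. The log2 fold change was -0.43 (standard error 0.134, 95% interval -0.77 to -0.10, adjusted p = 0.204 from limma and 0.0584 with the spread following the signal), and it ranged from -0.57 to -0.29 when 1 array was left out. The relatives MYBL1 and MYBL2 had log2 fold changes of 0.07 (adjusted p = 0.779) and 0.20 (adjusted p = 0.396). MYBL2, a gene of proliferating cells, is named here because of its kinship to MYB, after its value was seen.

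The trefoil genes lie side by side on chromosome 21, and none of them passed. TFF1 gave log2 signals of 6.57 and 6.71 in shControl cells and 6.47 and 6.53 in FDXR sh434 cells, with only 0.04 between the conditions. Its log2 fold change was -0.14 (standard error 0.11, 95% interval -0.41 to 0.14, adjusted p = 0.589 from limma). The interval of TFF1 overlaps those of MYB, AGR2, STC2 and GREB1, and differences between the changes of these genes were not tested.
TFF3 gave log2 signals of 5.88 and 5.61 in shControl cells and 5.92 and 5.87 in FDXR sh434 cells, so the conditions overlapped, and it was the only one of the 9 genes with a positive log2 fold change, 0.15 (standard error 0.132, 95% interval -0.18 to 0.48, adjusted p = 0.612). TFF2, which lies between them and is named here after its value was seen, had a log2 fold change of 0.04 (adjusted p = 0.907) at a mean log2 signal of 4.23 in shControl cells, below the median probe.

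CA12, whose enzyme hydrates carbon dioxide outside the cell, had the smallest difference of the 9 genes. Its log2 signal was 10.52 and 10.49 in shControl cells and 10.43 and 10.49 in FDXR sh434 cells. The log2 fold change was -0.05 (standard error 0.102, 95% interval -0.30 to 0.21, adjusted p = 0.853 from limma, 0.683 with the spread following the signal). Both protein-coding genes measured next to CA12 had positive values, APH1B at 0.61 (adjusted p = 0.0804, 0.00627 with the spread following the signal) and USP3 at 0.66 (adjusted p = 0.0711, 0.00295 with the spread following the signal). CA8, CA13 and CA14, of other carbonic anhydrase genes, had log2 fold changes of -0.68, 0.68 and 0.44 (adjusted p = 0.0712, 0.0855 and 0.129 from limma). With the spread following the signal CA8 was lower (adjusted p = 0.00126) and CA13 higher (adjusted p = 0.0225), while CA14 did not pass (adjusted p = 0.162). CA13 and CA14 were brighter than only 48.7% and 20.2% of probes. CA8, CA13, CA14 and GREB1L are named after their values were seen. The other carbonic anhydrase genes measured, CA1, CA2, CA4, CA6, CA7, CA10 and CA11, had log2 fold changes from -0.12 to 0.12. None of them passed in either fit.

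Around the 9 genes, the nearest measured protein-coding gene on each side in RefSeq order gave 15 genes that are not on the list. Of these 15 neighbours 0 passed by limma, against 0.402% of all probes lower and 0.298% higher. With the spread following the signal 1 was lower and 3 higher, against 3.41% and 5.02% of all probes. Their median log2 fold change was 0.08, with a range from -0.51 to 0.66. The lower one was HBS1L beside MYB, at -0.51 (adjusted p = 0.107 from limma, 0.00329 with the spread following the signal). For AGR3, PDZK1, STC2, GREB1 and AGR2, none of the neighbours outside the list passed as lower in either fit.

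**Figure D3:**
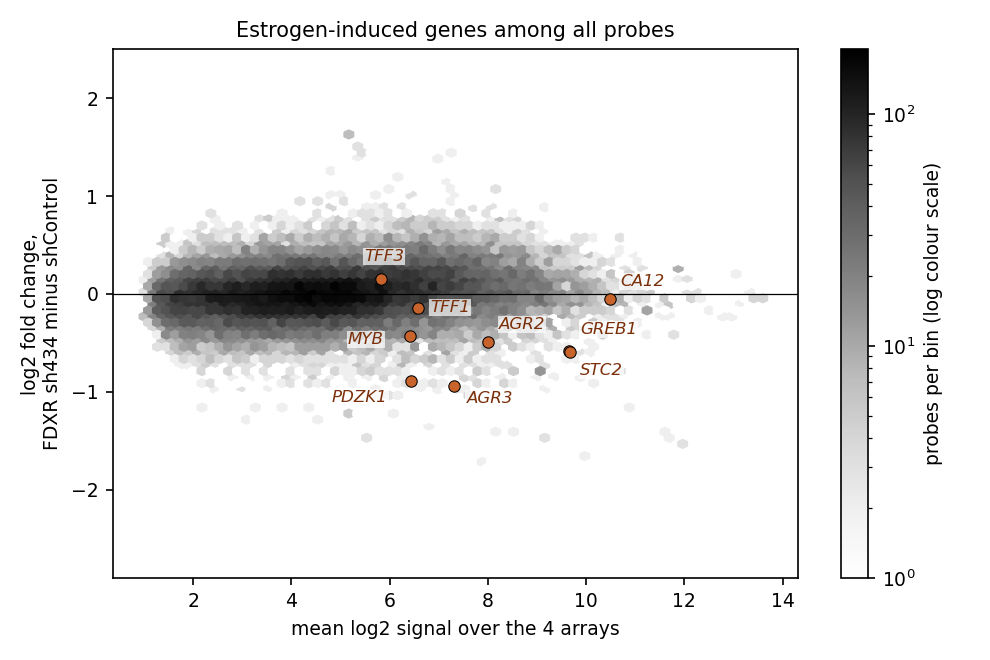
Mean log2 signal over the 4 arrays (x axis) against the log2 fold change, FDXR sh434 minus shControl (y axis), for all 38598 probes (grey, darker bins hold more probes on a log colour scale) and the 9 measured estrogen-induced genes (orange). The 9 genes lie among the brighter probes, from TFF3 above 68.6% of probes to CA12 above 99.2%, and AGR3 and PDZK1 lie lowest of the 9, at -0.94 and -0.89.

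Where estrogen receptor binding to DNA is direct, it uses the estrogen response element, a pair of inverted half-sites, and most such binding lies in distant enhancers. RefSeq windows from 250 bases before to 50 bases after a transcription start (GRCh38.p14) were searched for PDZK1, MYB, CA12, AGR2, AGR3 and STC2, in 7 windows, since PDZK1 has 2 that overlap. Those of GREB1, TFF1, TFF3 and RERG were not used here. The full element, GGTCANNNTGACC, was in 0 of the 7 windows and in 0.057% of all 35116 windows. The half-site AGGTCA, searched on both strands, was in the windows of PDZK1, as 1 site that both windows hold, and of AGR3, 2 times, and in 13.8% of all windows. The forkhead motif TGTTTAC, read by factors such as FOXA1, was in the window of MYB alone and in 3.42% of all, the AP-1 motif TGANTCA in none of the 7 and in 7.71% of all, and the GC box GGGCGG in those of MYB and CA12 and in 45% of all. The half-site shares the letters GGTCA with the full element. A match is a description of these letters and not of binding.

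The windows of 4 of the genes called with the trend are shown so that those with half-sites, AGR3 and PDZK1, can be read beside those without, AGR2 and STC2. All 4 are written 5′ to 3′ on the gene's strand, the minus strand, and capitals mark the half-sites. They lie at chr7:16881934-16882233 (AGR3), chr1:145707351-145707650 (PDZK1), chr7:16804950-16805249 (AGR2) and chr5:173328365-173328664 (STC2), in GRCh38.p14.
AGR3: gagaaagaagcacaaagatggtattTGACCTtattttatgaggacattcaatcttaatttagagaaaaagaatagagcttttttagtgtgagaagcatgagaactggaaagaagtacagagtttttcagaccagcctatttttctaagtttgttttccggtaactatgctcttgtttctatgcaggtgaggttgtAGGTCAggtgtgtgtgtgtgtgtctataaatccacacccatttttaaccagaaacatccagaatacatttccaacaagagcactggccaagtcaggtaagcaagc
PDZK1: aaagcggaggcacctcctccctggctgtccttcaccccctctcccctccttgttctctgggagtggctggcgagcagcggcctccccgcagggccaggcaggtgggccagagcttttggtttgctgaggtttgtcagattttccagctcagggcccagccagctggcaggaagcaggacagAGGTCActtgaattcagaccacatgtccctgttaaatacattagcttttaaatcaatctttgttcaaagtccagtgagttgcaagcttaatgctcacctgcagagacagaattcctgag
AGR2: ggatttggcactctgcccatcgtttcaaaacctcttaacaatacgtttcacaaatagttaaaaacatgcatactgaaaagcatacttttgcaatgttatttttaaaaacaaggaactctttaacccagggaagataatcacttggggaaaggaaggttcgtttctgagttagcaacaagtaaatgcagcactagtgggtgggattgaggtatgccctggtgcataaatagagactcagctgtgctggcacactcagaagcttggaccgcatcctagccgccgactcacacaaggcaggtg
STC2: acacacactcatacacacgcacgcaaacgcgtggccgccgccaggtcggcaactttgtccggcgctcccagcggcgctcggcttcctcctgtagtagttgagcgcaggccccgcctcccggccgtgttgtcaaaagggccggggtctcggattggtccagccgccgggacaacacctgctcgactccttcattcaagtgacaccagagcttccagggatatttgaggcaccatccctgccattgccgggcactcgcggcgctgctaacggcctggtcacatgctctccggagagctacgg
In AGR3 the half-sites begin 225 and 55 bases before the annotated start, the first of them as TGACCT on the printed strand, and in PDZK1 the half-site begins 69 bases before it. The windows also differ in composition. Their GC content is 38% for AGR3 and 43.7% for AGR2, against 54.3% for PDZK1, 64% for STC2 and a median of 58.7% over all windows, and the AGR3 window holds 1 CpG where that of STC2 holds 28.

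Of 78 other genes known or listed as estrogen-induced, 59 were measured. This list and those below were written with earlier results of these data known. At an adjusted p under 0.05, limma called 4 of the 59 lower in FDXR sh434 cells and 0 higher. Over all probes it called 0.402% lower and 0.298% higher. With the spread following the signal 16 of the 59 were lower and 3 higher. Their median log2 fold change was -0.13, against 0.0041 over all probes. The FDXR sh434 arrays were both below the shControl arrays for 37 of the 59 genes and both above for 12, against 23.1% and 25.6% of all probes, of which 3.41% were called lower and 5.02% higher with the spread following the signal. RAPGEFL1, a putative exchange factor for small GTPases, went from 7.61 and 7.72 to 6.69 and 6.62, or 49.9% of the control level (standard error 0.108 on the log2 scale, adjusted p = 0.0362 from limma). CALCR, the calcitonin receptor gene, went from 7.31 and 7.33 to 6.34 and 6.46 (log2 fold change -0.92, standard error 0.107, adjusted p = 0.043). IGFBP4, which encodes a binding protein of insulin-like growth factors, and EFEMP1, which encodes a fibulin of the matrix, were the other genes called, at -1.05 (adjusted p = 0.0306) and -0.94 (adjusted p = 0.0359). PGR, a textbook receptor target, gave 11.45 and 11.32 in shControl and 10.62 and 10.64 in FDXR sh434 cells (log2 fold change -0.75, adjusted p = 0.0575 from limma, 8.3e-05 with the spread following the signal). CTSD, whose lysosomal protease is also estrogen-induced, did not pass, with 11.91 and 11.97 against 12.00 and 12.02.

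Of 10 genes listed as repressed by estrogen, 8 were measured and 1 passed, EPAS1, the gene of the hypoxia-inducible factor HIF-2α, which was higher. Over all probes limma called 0.298% higher. EPAS1 gave 6.86 and 6.88 in shControl cells and 7.86 and 7.72 in FDXR sh434 cells, or 1.89-fold higher (log2 fold change 0.92, standard error 0.108, limma adjusted p = 0.0434). TP53INP1 and CCNG2, the brightest of the list that did not pass, had values of -0.23 (adjusted p = 0.355) and 0.08 (adjusted p = 0.787), and the median of the 8 genes was -0.01.

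Of 21 genes of the receptor and its cofactors 16 were measured. Of these 0 passed by limma, against 0.402% of all probes lower and 0.298% higher. At an unadjusted p under 0.05, 2 were lower and 3 higher, against 7.82% and 9.44% of all probes. The counts were the same with the spread following the signal, against 3.41% and 5.02% of all probes. ESR1 gave 7.79 and 7.54 in shControl cells and 7.33 and 7.26 in FDXR sh434 cells, with a log2 fold change of -0.37 (SE 0.127, limma adjusted p = 0.236, 0.0513 with the spread following the signal). FOXA1 had a log2 fold change of 0.21 (adjusted p = 0.39) and GATA3 one of -0.15 (adjusted p = 0.514). SPDEF, an ETS factor of luminal cells, had one of 0.52 (adjusted p = 0.149, 0.00578 with the spread following the signal).
Of 35 relatives of the 10 genes by family or function 22 were measured. Of these STC1 alone passed by limma, as lower, against 0.402% of all probes lower and 0.298% higher. With the spread following the signal 2 of the 22 were lower and 3 higher, against 3.41% and 5.02% of all probes. The median of the 22 was -0.03. The brightest that did not pass were TXNDC12, a thioredoxin-domain relative of AGR2, at 0.09 (adjusted p = 0.768), and MYBL1.

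**Figure D4:**
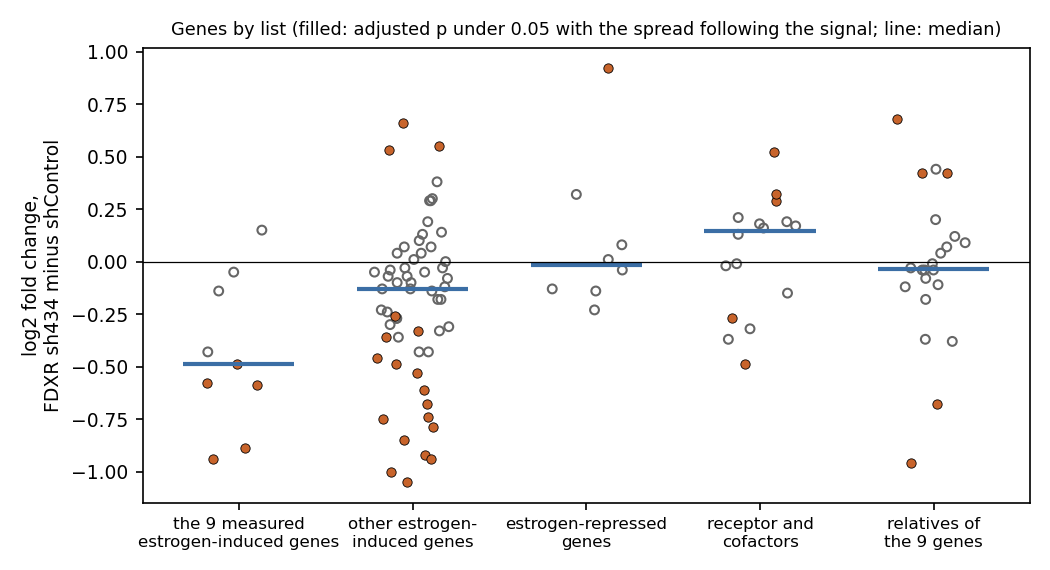
Log2 fold change, FDXR sh434 minus shControl (y axis), of every measured gene in 5 lists (x axis); filled points have an adjusted p under 0.05 from limma with the spread following the signal and lines are medians. The median is -0.49 for the 9 genes, -0.13 for the other estrogen-induced genes, -0.01 for the estrogen-repressed genes, 0.15 for the receptor and cofactors and -0.03 for the relatives.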

How the data were processed

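RNA of 4 T47D samples was measured on Affymetrix arrays. The authors deposited log2 signals per probe, already on 1 scale. The summarisation and normalization behind them are not given in the sources used here. Limma 3.50.3 is named in the submitters' processing notes. Scanner files were not used, the signal over background is therefore unknown, and precision is limited by the number of arrays. The labels call the samples biological replicates, and nothing says that they came from separate cultures, so p-values measure only the spread between these samples.

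Probes were named through the array's annotation (15715 probes with 1 gene symbol, 22883 with none), and 0 symbols changed when updated through RefSeq. FDXR sh434 was tested against shControl in limma 3.58.1 (lmFit, eBayes; R 4.3.3), unfiltered and without a trend, with Benjamini-Hochberg adjustment across all 38598 probes at a threshold of 0.05, as the paper's methods name limma and this threshold. Intervals are 95% limits of limma's moderated test on 5.45 degrees of freedom. In the fit called the spread following the signal, the trend and robust options of eBayes were on. The other alternatives were the trend alone, a replicate block, quantile normalization, median centring, a filter on dim probes, named probes only, the methods' t-test and each array left out in turn. With 2 arrays against 2, an exact permutation test cannot go below p = 0.333, so none was used. The scripts were tested on simulated data. The 10 genes and all lists were chosen with earlier results of these data known. Named are the 10 genes, ESR1, PGR, FOXA1 and GATA3, and from each other list up to 4 called genes, by size of change, with the 2 brightest not called; neighbours of the genes on the chromosome and further relatives were added later. Python 3.11.15, pandas 2.3.3, numpy 2.4.6, scipy 1.17.1 and matplotlib 3.10.9 were also used.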

Additional observations from a re-analysis of the deposited data

How the results depend on the processing

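The sign of the log2 fold change of each of the 9 genes was the same in the 17 tested alternatives and with the ratio of mean linear signals. The median of the 9 genes, -0.49, ranged from -0.59 to -0.48 when 1 array was left out. Each gene had 1 probe, so another probe could not be tried. Limma without a trend called 1 of the 9 genes, 6 genes of the other lists and 270 of all probes. The counts were 5, 29 and 3255 with the intensity trend and robust estimation, and 5, 29 and 3272 with the trend alone. When probes dimmer than the median probe were left out they were 5, 21 and 2541, the last out of 19299 probes tested. With named probes only they were 4, 16 and 687, the last out of 15715 probes tested. Without a trend, leaving out any 1 array gave 0 calls in each of these sets (1873 to 3273 of all probes lower and 1966 to 3550 higher at an unadjusted p under 0.05); with the trend it gave 3 to 6 of the 9 genes, 9 to 26 of the other lists and 571 to 2933 of all probes. AGR3, PDZK1 and GREB1 were called with the trend without any 1 array. The split of all probes was 155 lower and 115 higher without the trend, and 1318 lower and 1937 higher with the trend and robust estimation. The paper's methods name a Student's t-test for its other experiments and limma for the arrays. At an unadjusted p under 0.05 this t-test called 5 of the 9 genes lower and 0 higher, against 2246 lower and 3122 higher of all 38598 probes. After Benjamini-Hochberg adjustment it called 0 of the 9, 0 of the other lists and 0 of all probes. Quantile normalization and median centring each left 1 of the 9 genes called, with 259 and 281 of all probes.

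The replicate numbers share no stated origin, and the deviations of same-numbered arrays from their condition means correlated at 0.00196 across probes. With a replicate block the counts were 0, 0 and 0 without the trend (2966 of all probes lower and 3302 higher at an unadjusted p under 0.05), with an adjusted p = 0.0917 for AGR3 from limma, and 6, 33 and 3804 with it, where MYB was also lower (adjusted p = 0.0244). With 2 arrays per condition the number of arrays limits the precision, and the smallest change that could be called was not measured.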
